A study of Homo sapiens with 8 samples.

Results

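Aldehyde dehydrogenases oxidise reactive aldehydes to carboxylic acids, and the mRNAs of 10 genes named for this family were followed here in HCT116 p53+/+ cells, an established human colon cancer line that keeps wild-type p53. The genes were taken by symbol from a table of 58302 genes, and each symbol occurred once. They were ALDH1A1, ALDH1A3, ALDH1B1, ALDH2, ALDH3A1, ALDH3A2, ALDH3B1, ALDH4A1, ALDH7A1 and ALDH18A1. Both groups were the same p53+/+ line. 4 samples were treated with 1 µM MANIO, a compound known here only by this name, and 4 with its solvent DMSO, each for 24 hours. By the series' design text, the samples are biological replicates, and the question was whether p53-responsive transcription is engaged. The comparison has 1 line, 1 dose and 1 time, and no cells without p53 are among these samples, so a change cannot be assigned to p53 from them.

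Family members differ in place and substrate. The cytosolic ALDH1A enzymes turn retinaldehyde into retinoic acid, the ligand of nuclear receptors, and their activity is widely used to mark stem-like cells in colon and other tumours. ALDH2 and ALDH1B1 work in mitochondria, where they clear acetaldehyde and products of lipid peroxidation. Enzymes of the ALDH3 branch act on medium- and long-chain fatty aldehydes, and ALDH4A1, ALDH7A1 and ALDH18A1 belong to amino acid pathways. ALDH4A1 has been described as a p53-inducible gene.

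The libraries held 27945196 to 31750628 counts in DMSO and 29270359 to 32509020 in MANIO. DMSO replicate 1 stood apart by chi-square per degree of freedom, the squared difference between libraries relative to that from counting noise. Its pairs with the other DMSO libraries gave 19 to 22.2, and all other pairs within a group 3.38 to 13.5. The share of counts in mitochondrially encoded genes was 7.48% in DMSO replicate 1. The other DMSO libraries reached at most 5.21% and the MANIO libraries ranged from 6.70% to 7.62%. The p53 targets CDKN1A and MDM2 were 5.38-fold and 3.60-fold higher in MANIO, and both passed edgeR's quasi-likelihood test. Of 6 epithelial markers, EPCAM, KRT8, KRT18, KRT19 and CDH1 passed the filter on low counts and VIL1 did not, and their summed level was 3333 to 3606 CPM (counts scaled to library size) in DMSO and 4119 to 4618 CPM in MANIO. Of 18 markers of fibroblasts, endothelium, immune cells and hepatocytes, 3 passed that filter (COL1A1, VWF and SERPINA1), and LUM and TTR had no counts. The fibroblast list summed to 21.1 to 26.1 CPM in DMSO and 39.1 to 46.7 CPM in MANIO, the endothelial list to 1.05 to 1.31 and 0.396 to 0.570 CPM, the immune list to at most 0.223 and 0.443 CPM, and the hepatocyte list to 2.06 to 2.20 and 3.03 to 3.87 CPM. The part of these differences in the results below was not tested.

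ALDH1A3 was about 2-fold higher after MANIO and ALDH3A2 was 1.78-fold lower, while the other members that could be tested did not pass. 9 of the 10 genes had enough counts to be tested, and ALDH1A1 did not. Of these 9, 1 rose and 1 fell at an adjusted p under 0.05, so 22.2% were called, where 54.6% of all 15712 tested genes were, 27.8% as higher and 26.8% as lower. The MANIO and DMSO libraries did not overlap for the same 2 members, against 48.3% of all tested genes. Here and below, calls and adjusted p-values come from edgeR (quasi-likelihood test), with p-values adjusted by Benjamini and Hochberg's method over all tested genes. The median log2 fold change of the 9 members was 0.04 and that of all genes was 0.00, and the median size of the change, whatever its sign, was 0.0600 for the members and 0.261 for all genes. In bulk RNA, fewer cells with a transcript and less of it per cell cannot be told apart.

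**Figure D1:**
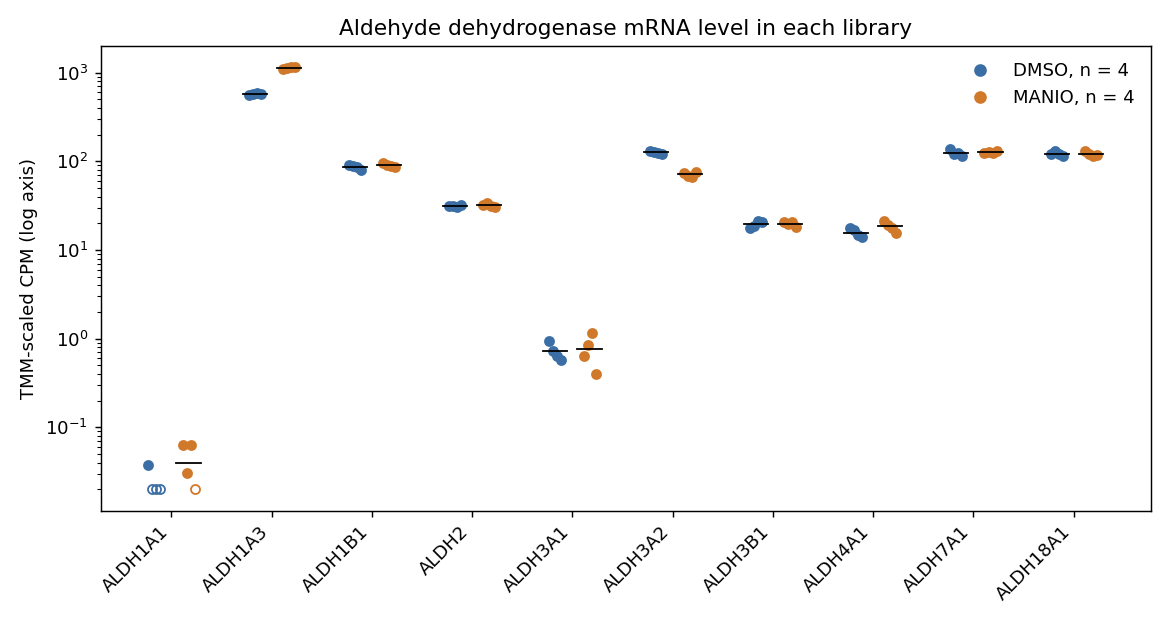
Level of each of the 10 genes in each library, as TMM-scaled CPM on a log axis. Points are libraries (4 DMSO, 4 MANIO), short lines are group means, and open circles at the foot of the axis are libraries with no count (the DMSO mean of ALDH1A1 is below the axis); the groups are apart for ALDH1A3, at 564 to 590 against 1100.5 to 1152 CPM, and for ALDH3A2, at 122 to 132 against 66.2 to 75.6 CPM.

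Among the retinaldehyde dehydrogenases, ALDH1A3 carried nearly all the signal. Its level was 564, 574, 590 and 573 CPM in DMSO replicates 1 to 4 and 1100.5, 1133, 1140.3 and 1152 CPM in MANIO replicates 1 to 4. Every treated library lay far above every control library, and within each group the libraries were close together, with a coefficient of variation of 1.91% in DMSO and 1.95% in MANIO. The means were 575 ± 11 and 1131 ± 22.1 CPM (SD, n = 4 each), a 1.97-fold rise with a 95% interval of 1.83 to 2.12 (log2 fold change 0.98, SE 0.0493, adjusted p = 7.2e-10). By log2 fold change, 95.2% of all tested genes ranked at or below it. Without DMSO replicate 1 the value was 0.96 (adjusted p = 4.6e-10). Per kilobase of merged exons the gene moved from rank 332 to rank 129 among 58039 genes with a known length. On GRCh38 ALDH1A3 (ENSG00000184254) lies on chromosome 15 at 100877714 to 100916626, on the plus strand. 28.55% of its exonic bases lie in exons of another gene, nearly all of them in the antisense gene AC015712.2, which itself had 51 to 78 counts in these libraries, and the library kit did not mark the strand.

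ALDH1A1, the retinaldehyde dehydrogenase most often cited as a stem cell marker, was near absent. It had 1 count in DMSO replicate 1 and none in the other DMSO libraries, and 2, 1, 2 and 0 counts in MANIO replicates 1 to 4. A limit of 3 counts per library corresponds to 0.0915 to 0.112 CPM, and no library reached it, so no fold is given. None of the exonic bases of ALDH1A1 (ENSG00000165092, chromosome 9, 72900662 to 73080442) overlap another gene. The third gene of this branch, ALDH1A2, had 1 to 8 counts in DMSO and 2 to 6 in MANIO and was not tested either.

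The stretches before the start sites of these genes are shown because a CCAAT box, a common promoter element, was found before 5 of them, among them the member that rose and the member that fell. RefSeq promoter sequences (GRCh38.p14) were at hand for 8 of the 10 members, in 11 windows of 250 bases before an annotated start. ALDH2 and ALDH3A1 had no entry. CCAAT, searched on both strands, was found in 5 of the 11 windows, 1 for each of 5 members, and in 32.01% of all 35114 windows of that length. Each line gives 12 bases on either side, 5′ to 3′ on the strand on which the box reads CCAAT, with the box in capitals:
ALDH1A3 (chr15:100879748-100879776, plus strand): ccggtcccgcagCCAATtaggcggccccc
ALDH1A1 (chr9:72953111-72953139, minus strand): gagtttgttcatCCAATcgtatccgagta
ALDH1B1 (chr9:38392664-38392692, minus strand, opposite to the gene): ggggctcagcggCCAATgaggctccgcct
ALDH3A2 (chr17:19648709-19648737, plus strand): gggccgcccaggCCAATaggggtgaggct
ALDH7A1 (chr5:126595266-126595294, minus strand): ggtcgggtctgcCCAATgggttctcccgg
The box ended 67 bases before the start in ALDH1A3, 70 in ALDH1A1 and 59 in ALDH7A1, and lay closer in ALDH3A2 (26) and ALDH1B1 (22). The member that rose, the member that fell, 2 that did not pass and 1 that was hardly transcribed all held it. The windows differ in how far they overlap annotated exons: all 250 bases of the ALDH1A3 window lie in annotated untranslated exon sequence, as do 225 of the second ALDH3A2 window, 199 of ALDH7A1, 38 of ALDH1B1 and 3 of ALDH1A1. The GC box (GGGCGG on either strand) was found in 6 of the 11 windows, 1 each of ALDH1A3, ALDH1B1, ALDH3A2, ALDH3B1, ALDH4A1 and ALDH7A1, and in 42.64% of all windows. The window of ALDH1A3 was 82.4% G or C with 38 CpG dinucleotides and 6 GC boxes, and that of ALDH1A1 was 38.4% G or C with 6 CpG and no GC box. The median window of all genes had 58.0% G or C and 11 CpG. The p53 half-site, a 10-base consensus searched on both strands, was found in 0 of the 11 windows and in 5.57% of all windows. The antioxidant response element TGACNNNGC was found in 0 of the 11 and 10.91% of all. These are matches of letters in short windows and say nothing of binding here or elsewhere in the genes.

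The mitochondrial acetaldehyde enzymes kept their level within a few percent. ALDH1B1, whose coding sequence lies in a single exon, had 91.3, 88.5, 86.8 and 79.0 CPM in DMSO and 95.5, 90.1, 88.2 and 86.6 CPM in MANIO, replicates 1 to 4. The ranges overlap, and only MANIO replicate 1 exceeded all control libraries. The fold was 1.04, with a 95% interval of 0.958 to 1.13 (adjusted p = 0.398). ALDH2, the main acetaldehyde dehydrogenase of the body, had 31.4, 31.5, 30.1 and 32 CPM in DMSO and 32.5, 33.7, 31.4 and 30.7 CPM in MANIO, with a fold of 1.03 and an interval of 0.944 to 1.12 (adjusted p = 0.600). The treated libraries lay around the controls for ALDH2, with MANIO replicates 1 and 2 above the highest of them. ALDH2 lies on chromosome 12 at 111766887 to 111817529 and ALDH1B1 on chromosome 9 at 38392664 to 38398661.

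Of the fatty aldehyde dehydrogenases only ALDH3A2 was called. This gene encodes the membrane-bound enzyme of the endoplasmic reticulum and peroxisome that oxidises long-chain fatty aldehydes and is mutated in Sjögren-Larsson syndrome. Its level was 132, 128, 125 and 122 CPM in DMSO replicates 1 to 4 and 73.9, 68.9, 66.2 and 75.6 CPM in MANIO replicates 1 to 4. All treated libraries lay below all controls, with a wide gap. The means were 127 ± 4.40 and 71.1 ± 4.36 CPM (SD, n = 4 each), and the log2 fold change was -0.83 (SE 0.0561, adjusted p = 1.6e-08). The remaining level was 0.561 of the control, with a 95% interval of 0.516 to 0.610, and 3.53% of all tested genes ranked at or below it by fold change. Without DMSO replicate 1 the value was -0.81 (adjusted p = 1.1e-08). The gene (ENSG00000072210) spans 29.5 kb on chromosome 17, from 19648136 to 19677598, and shares no exonic base with another gene.

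ALDH3A2 has 2 annotated starts in the RefSeq table, and counts over the whole gene do not say which was used. The window before the first is shown as the upstream sequence of the only member that fell, since the one before the second lies mostly in an annotated exon. It runs over chr17:19647886-19648135 on the plus strand and is 55.6% G or C. It held none of the motifs searched, which also included TATAAA (10.72% of all windows) and the nuclear receptor half-site AGGTCA (12.08%). Of the members' 11 windows 0 held TATAAA and 1, the second of ALDH4A1, held AGGTCA. In the window shown here no base is in capitals:
ALDH3A2, first start: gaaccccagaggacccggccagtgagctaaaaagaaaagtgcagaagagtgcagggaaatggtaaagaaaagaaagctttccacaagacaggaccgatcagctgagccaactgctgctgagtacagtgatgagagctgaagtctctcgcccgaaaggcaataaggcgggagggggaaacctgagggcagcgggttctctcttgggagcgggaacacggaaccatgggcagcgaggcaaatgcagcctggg

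ALDH3A1 and ALDH3B1 did not pass. ALDH3A1, the cytosolic enzyme known from cornea and stomach, lies 60.4 kb away on the opposite strand of chromosome 17 and was expressed at a low level. It had 25, 21, 20 and 16 counts in DMSO, or 0.568 to 0.930 CPM, and 20, 28, 37 and 12 counts in MANIO, or 0.404 to 1.17 CPM. MANIO replicates 3 and 4 were the highest and the lowest of all 8 libraries. At this depth the fold of 1.08 had a 95% interval of 0.707 to 1.65 (adjusted p = 0.771), and the counts were too few to narrow it. The difference between the changes of the 2 genes was not tested. ALDH3B1, which oxidises medium- and long-chain aldehydes at membranes, had 17.7 to 21.4 CPM in DMSO and 18.3 to 20.5 CPM in MANIO. The treated range lay wholly inside the control range, and the fold was 1.01 (interval 0.905 to 1.12, adjusted p = 0.913).

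**Figure D2:**
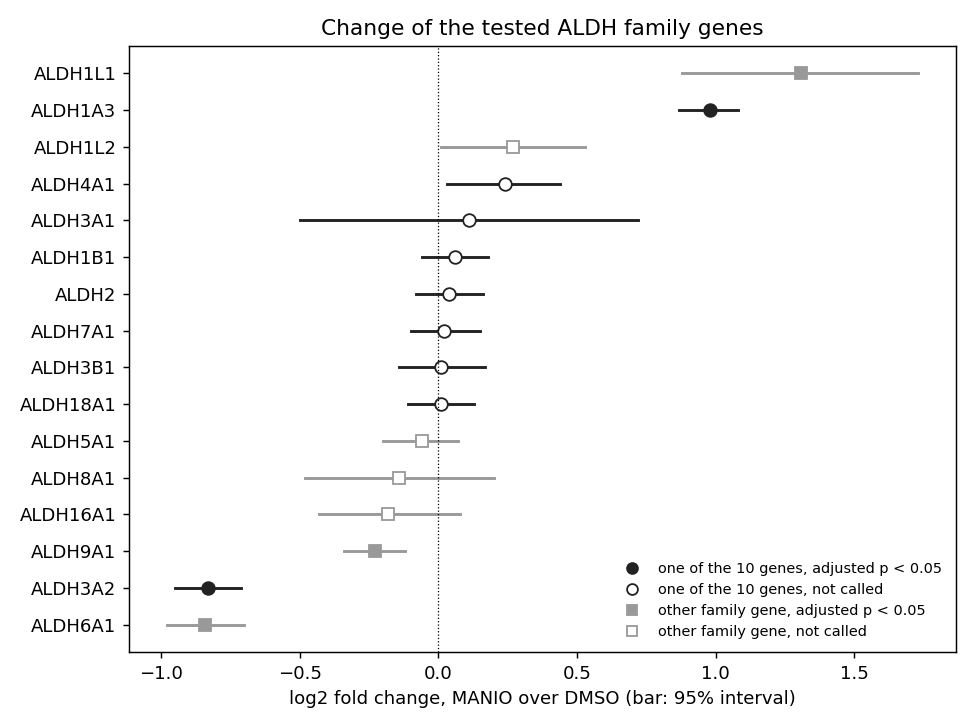
Log2 fold change (MANIO over DMSO) of the 16 tested genes of the aldehyde dehydrogenase family, with 95% intervals from edgeR's quasi-likelihood fit. Circles are the 9 tested members and squares the 7 other tested family genes, filled where the adjusted p is under 0.05. 2 circles and 3 squares are filled, where 54.6% of all tested genes passed. 6 circles lie within 0.11 of 0, as do 23.3% of all tested genes. Among these 6, ALDH3A1 has a wide interval (-0.50 to 0.72).

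The amino acid branch showed at most small differences. ALDH4A1 is the mitochondrial enzyme that completes the breakdown of proline by turning pyrroline-5-carboxylate into glutamate. It had 17.5, 16.6, 14.7 and 13.9 CPM in DMSO replicates 1 to 4 and 21.3, 19.1, 17.8 and 15.6 CPM in MANIO replicates 1 to 4. 3 of the 4 treated libraries exceeded the highest control, and MANIO replicate 4 fell among the controls. The fold was 1.18 with an interval of 1.02 to 1.36, and the adjusted p was 0.0508, just outside the threshold. The call hung on the settings: 5 of 14 alternatives called the gene as higher, among them the fit with the replicate number as a block (adjusted p = 0.00873) and those without DMSO replicate 1 (0.0207), DMSO replicate 2 (0.0473) or MANIO replicate 4 (0.00781), and over all 14 the adjusted p ran from 0.00781 to 0.656. In ALDH4A1 (chromosome 1, 18871430 to 18902781) 41.12% of the exonic bases also belong to AL080251.1, a gene on the same strand with 0 to 2 counts, and how reads in the shared part were counted was not tested.

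ALDH7A1 and ALDH18A1 were among the more abundant members and stayed level. ALDH7A1, known as antiquitin, acts in lysine breakdown and had 138, 120, 123 and 115 CPM in DMSO and 124, 127, 124 and 130 CPM in MANIO. DMSO replicate 1 was the highest of all 8 libraries, and the treated libraries all fell inside the control range. Its fold was 1.02 (interval 0.933 to 1.11, adjusted p = 0.748). ALDH18A1 encodes pyrroline-5-carboxylate synthase, which makes the precursor of proline and ornithine from glutamate and so runs opposite to ALDH4A1. It had 115 to 129 CPM in DMSO and 116 to 131 CPM in MANIO, with a fold of 1.01 (interval 0.925 to 1.09, adjusted p = 0.923). Across the members that did not pass, ALDH3A1 and ALDH4A1 apart, every interval stayed between 0.905 and 1.13.

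Levels of different genes were compared as CPM per kilobase of merged exons. In DMSO ALDH1A3 led with 99.6 ± 1.90 (SD, n = 4), followed by ALDH18A1 (32.1 ± 1.58), ALDH1B1 (27.4 ± 1.67), ALDH3A2 (19.6 ± 0.681), ALDH7A1 (6.91 ± 0.552), ALDH4A1 (4.25 ± 0.455), ALDH2 (3.22 ± 0.0865), ALDH3B1 (2.96 ± 0.253), ALDH3A1 (0.183 ± 0.0402) and ALDH1A1. Of neighbours in that order only ALDH2 and ALDH3B1 overlapped between libraries. In MANIO the order was the same, with ALDH1A3 at 196 ± 3.83 and ALDH3A2 at 11 ± 0.675 CPM per kilobase, and no neighbours overlapped. The order depends on the length used. ALDH7A1 has 17970 bases of merged exons but 2501 in its transcript of longest coding sequence, and on the latter length it came second in both groups, at 49.6 ± 3.97 and 50.5 ± 1.24 CPM per kilobase, while ALDH3A2 took the fourth place in DMSO, where it overlapped ALDH18A1, and the fifth in MANIO.

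ALDH1A3 made up a larger part of the 10 genes' summed mRNA in MANIO. It was 50.8 ± 1.28% of the summed CPM per kilobase of the 10 genes in DMSO and 68.5 ± 1.32% in MANIO (SD, n = 4 each), and the share of ALDH3A2 was 10.0 ± 0.258% and 3.85 ± 0.224%. The summed level was 190 to 199 CPM per kilobase in the DMSO libraries and 285 to 287 in the MANIO libraries. Without ALDH1A3 the sum was 91.1 to 99.8 in DMSO and 87.3 to 95.7 in MANIO, so the 9 other genes together overlapped between groups. The ratio of ALDH1A3 to ALDH3A2 within a library was 4.76 to 5.27 in DMSO and 16.7 to 19.3 in MANIO. Over all 19 genes of the family, ALDH1A3 was 41.4 ± 1.16% of the sum in DMSO and 60.5 ± 1.29% in MANIO, and the sum was 241 ± 5.08 and 324 ± 1.79 CPM per kilobase. These sums and shares are descriptions with no test.

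**Figure D3:**
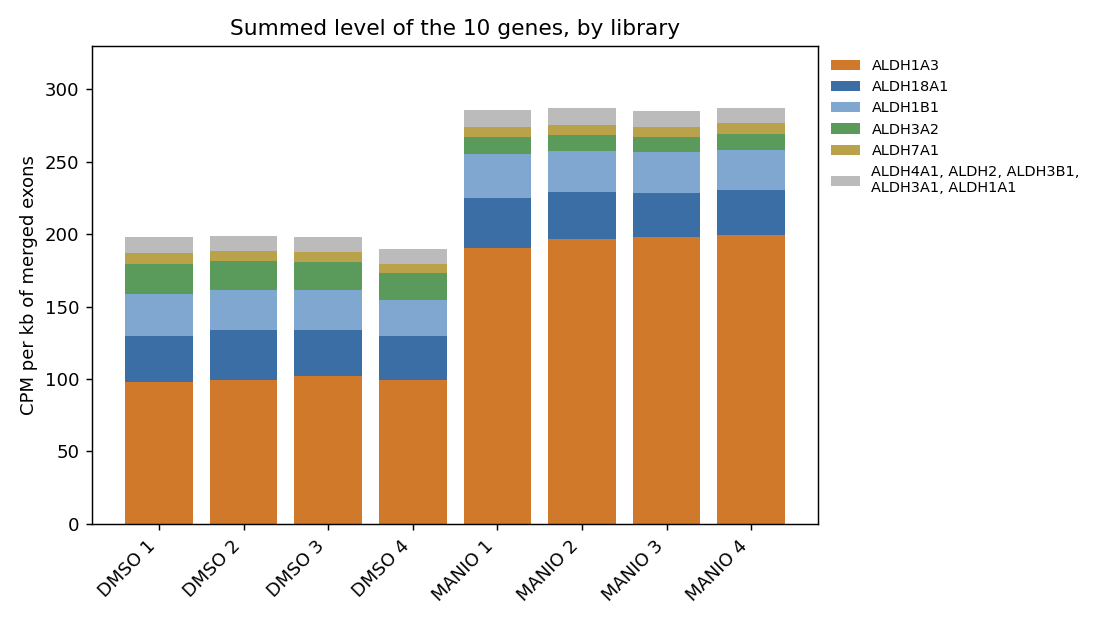
Summed level of the 10 genes in each library, in CPM per kilobase of merged exons, stacked by gene (4 DMSO and 4 MANIO libraries). The ALDH1A3 part grows from about 50.8% of the bar in DMSO to 68.5% in MANIO, the ALDH3A2 part shrinks from 10.0% to 3.85%, and the other parts keep a similar height.

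The 9 remaining human genes of the family gave 7 that could be tested, of which 1 rose and 2 fell (42.9% called, against 54.6% of all tested genes). ALDH1L1, a cytosolic folate enzyme that oxidises 10-formyltetrahydrofolate, had 12 to 21 counts in DMSO and 40 to 52 in MANIO, or 0.571 ± 0.130 and 1.42 ± 0.161 CPM, a 2.47-fold rise from a low level (interval 1.84 to 3.33, adjusted p = 6.0e-05). Its mitochondrial counterpart ALDH1L2 was at 2.11 ± 0.151 and 2.54 ± 0.105 CPM. All 4 treated libraries lay above the controls, yet the adjusted p was 0.0716. ALDH6A1, the methylmalonate semialdehyde dehydrogenase of valine breakdown, fell from 29.2 ± 1.49 to 16.3 ± 0.928 CPM (log2 fold change -0.84, SE 0.0657, adjusted p = 7.3e-08), close in size to ALDH3A2. ALDH9A1, which oxidises aminoaldehydes such as the precursor of carnitine, fell by a smaller step, from 95.1 ± 4.23 to 80.9 ± 2.00 CPM (-0.23, adjusted p = 0.00133). ALDH5A1 (-0.06), ALDH8A1 (-0.14) and ALDH16A1 (-0.18) did not pass, and ALDH1A2 and ALDH3B2 were too low to test. ALDH6A1 shares 10.03% of its exonic bases with BBOF1 on the other strand, which had 137 to 202 counts.

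Genes around these enzymes were read from 5 lists drawn from general knowledge, with 56 tested genes in all. Beside ALDH1A3, the retinoid list had 7 of 15 tested genes higher, 1 lower and 7 that did not pass (median log2 fold change 0.17). That is 53.3% called, near the 54.6% of all tested genes, of which 27.8% were higher and 26.8% lower. Without DMSO replicate 2 the list had 8 genes higher and 2 lower. Without DMSO replicate 3, DMSO replicate 4, MANIO replicate 1 or MANIO replicate 2 it had 5 higher and 1 lower. Without MANIO replicate 4 it had 9 higher and 1 lower. CRABP2, which carries retinoic acid to its nuclear receptor, went from 140 ± 5.67 to 229 ± 3.87 CPM (0.70), and RDH10, the retinol dehydrogenase that supplies retinaldehyde, from 27.6 ± 0.289 to 45.9 ± 2.97 CPM (0.73). All 4 treated libraries exceeded all controls for both. The retinol dehydrogenase gene RDH5, at under 1 CPM, rose by 0.90 on the log2 scale. The largest adjusted p of these 3 genes was 0.00167. The retinaldehyde reductase gene RDH11 (-0.21) was the member that fell, and was named after its value was seen.

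Beside ALDH3A2, the list of fatty aldehyde and sphingolipid breakdown had 5 of 11 tested genes higher and 1 lower (54.5% called, median 0.16). That share called is near the 54.6% of all tested genes, of which 27.8% were higher and 26.8% lower. Without DMSO replicate 1, 2 genes of the list were lower. The risers included all 4 genes of the CYP4F family on the list, which encode omega-hydroxylases of long-chain lipids: CYP4F3 went from 2.44 ± 0.331 to 6.67 ± 0.684 CPM (1.44), CYP4F11 from 12.5 ± 0.597 to 18.2 ± 0.204 CPM (0.54), and CYP4F2 (1.26) and CYP4F12 (0.97) rose from about 1 CPM. These genes are similar in sequence, and the sources used here do not say how reads that match several of them were counted. The one that fell was SGPL1 (-0.23; named after its value was seen), the lyase that releases hexadecenal, a substrate of the ALDH3A2 enzyme, from sphingosine 1-phosphate.

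Beside ALDH4A1 and ALDH18A1, the proline, ornithine and glutamate list had 3 of 12 genes higher and 4 lower (58.3% called, median -0.11). Of all tested genes 54.6% were called, 27.8% as higher and 26.8% as lower. Without DMSO replicate 2, and also without MANIO replicate 3, 2 genes of the list were lower. PYCR1, which makes the last step of proline synthesis after ALDH18A1, fell from 345 ± 25.8 to 221 ± 19.9 CPM (-0.65, adjusted p = 2.2e-06), and GLUD1 (-0.29) fell as well. The glutamine synthetase gene GLUL (0.22) rose. Proline dehydrogenase, which feeds ALDH4A1, could not be tested, with 0 to 1 counts of PRODH in DMSO and 2 to 5 in MANIO (named after its values were seen). On the lysine and choline list 0 of 8 tested genes were higher and 3 lower (37.5% called, median -0.17). That share called is below the 54.6% of all tested genes, of which 26.8% were lower. DMGDH (-0.93), the lysine-degrading AASS (-0.41) and GCDH (-0.23) fell, and SARDH (-0.21) did not pass. GCDH lost its call without DMSO replicate 2, MANIO replicate 2 or MANIO replicate 4 (adjusted p = 0.0932, 0.0777 and 0.0600).

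Among alcohol dehydrogenases and carbonyl reductases, 2 of 10 tested genes were higher and 3 lower (median -0.12). AKR1B10, a retinaldehyde and lipid aldehyde reductase, went from 0.582 ± 0.175 to 3.72 ± 0.397 CPM (2.67), and CBR3 rose by 0.47 on the log2 scale, a call that was lost without MANIO replicate 2 or 3 (adjusted p = 0.0673 and 0.0585). In each of those fits 1 gene of this list was higher and 2 were lower. AKR7A2 fell by 0.47 on the log2 scale and ADH5, the formaldehyde-clearing alcohol dehydrogenase, by 0.30. Over the 5 lists together 29 of 56 genes (51.8%) were called, near the 54.6% of all genes.

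**Figure D4:**
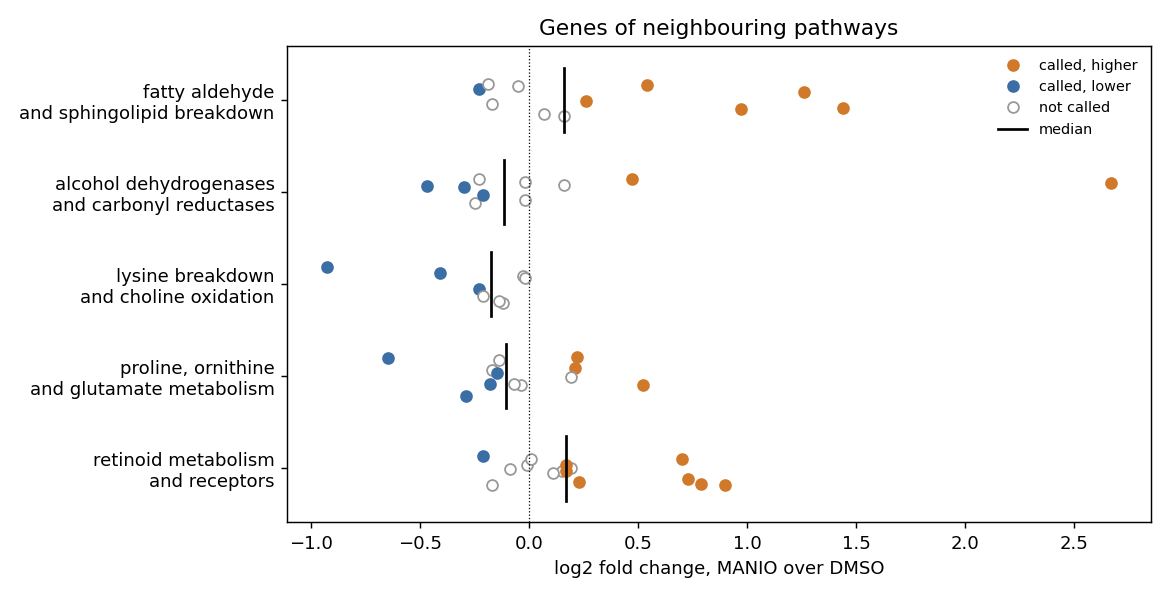
Log2 fold change (MANIO over DMSO) of the 56 tested genes of 5 lists of neighbouring pathways, 1 point per gene, with the list's median as a vertical line. Orange points passed as higher, blue points as lower and open points did not pass. The retinoid list has 7 orange points of 15 and the lysine and choline list none of 8. Of all tested genes 27.8% passed as higher.

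For a description of what moved in the same way, the 12097 named genes with an average of at least 1 on the log2 CPM scale were ranked by the root mean square difference of their centred log2 profile over the 8 libraries. The nearest to ALDH1A3 were the aquaporin gene AQP3 (0.0350), the cytidine deaminase gene APOBEC3C (0.0440) and ZNFX1 (0.0459), each with a log2 fold change of 1.00. Among the 3 nearest to ALDH3A2 were CUTC (0.0453) and ARHGAP26 (0.0503), with log2 fold changes of -0.88 and -0.85. All 5 were picked by this profile, so a group difference close to that of the matched gene follows from the choice.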

How the data were processed

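RNA of 8 HCT116 p53+/+ samples (4 DMSO, 4 MANIO) was sequenced from TruSeq RNA v2 libraries, per the labels' protocols. The authors deposited raw read counts per Ensembl gene. Listed in the submitters' processing notes, without roles, are the build GRCh38 and the tools STAR 2.5.3a, FastQC 1.3, DESeq2 and HTSeq. Not given in the sources used here are the annotation release, how multi-mapped reads were treated, and whether strand was used. With genes that share exons, such counting can leave reads out. All 8 value columns were used.

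In R 4.3.3, genes passing filterByExpr (15712) were scaled by TMM and tested with edgeR 4.0.16 (robust quasi-likelihood F test, model of group alone) with Benjamini-Hochberg adjustment, and an adjusted p under 0.05 was called. Intervals are 95%, and SEs come from the F statistic. Alternatives used DESeq2 1.42.0, limma 3.58.1 (voom), upper-quartile scaling, no filter, a replicate block, glmTreat at 1.2-fold, and each library left out. Deviations of samples with the same replicate number were only weakly correlated (0.038 to 0.163). Most DMSO libraries matched another number better, so the numbers were not taken as pairing. The series' design text calls the replicates biological. The p-values weigh the group difference against the spread between these replicates, all of the same line. The procedure was tested on simulated data in which far fewer genes changed than were called here. That test does not give its error rate for these data.

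Lengths, positions and overlaps are from GENCODE release 29 (GRCh38), and promoters from RefSeq (GRCh38.p14). The named genes are the 10 members, the 9 other family genes, at most 4 genes of smallest p per list, and the 3 nearest profiles of the members with the largest rise and fall. A few genes that this rule names are not reported here. The members and lists were chosen with earlier results of these data known.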

Additional observations from a re-analysis of the deposited data

Results flagged for a closer look

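In 5 of 84 groups of 4 libraries, 1 library lay far from the other 3, a gap that chance gives in about 1 in 20 groups. CDKN1A was at 1257 CPM in MANIO replicate 4, against 1445 to 1462 CPM in the other MANIO libraries, and AKR7A2 in the same library was at 40.9 CPM, against 45.5 to 46.2 CPM. CYP4F2 was at 0.769 CPM in DMSO replicate 2, against 1.19 to 1.24 CPM, and DMGDH at 1.17 CPM in DMSO replicate 4, against 1.04 to 1.05 CPM. ALDH1A1 stood at 0.0372 CPM in DMSO replicate 1, which is a single count, with none in the other DMSO libraries.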

How the results depend on the processing

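ALDH1A3 kept its rise (log2 fold change 0.96 to 0.99) and ALDH3A2 its fall (-0.86 to -0.80) in all 14 alternatives. With 1 library left out, 2 to 3 members, 3 of the other family genes, 24 to 30 list genes and 7818 to 8622 of all genes were called. The replicate block called 3 members, 3 other family genes, 30 list genes and 8845 of all genes. It added ALDH4A1 (adjusted p = 0.00873) and changed no other call of a named gene. Replicates of the same number had correlated deviations of 0.038, 0.163, 0.118 and 0.096 for numbers 1 to 4, and 1 of 4 DMSO libraries matched its own number best. Against a 1.2-fold limit (glmTreat), 2 of 9 members were called, as in the main fit, while the count over all 15712 tested genes went from 8574 to 4132. The lower share of calls among the members in the main fit thus depends on the limit. Called too were 2 of 7 other family genes and 12 of 56 list genes (3 of the retinoid, 2 of the proline, 1 of the lysine, 2 of the alcohol dehydrogenase and 4 of the fatty aldehyde list). ALDH9A1 (adjusted p = 0.779), GLUL (0.911), GLUD1 (0.379), AASS (0.138), GCDH (0.742), ADH5 (0.315) and CBR3 (0.115) lost their calls. Against that limit 0 genes of the retinoid and fatty aldehyde lists were lower, so RDH11 and SGPL1 lost their calls as well. With no filter for low counts, ALDH16A1 was called as lower (adjusted p = 0.0290). Upper-quartile scaling called 4183 genes as higher and 4391 as lower, against 4366 and 4208.

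Members close to 0 changed sign without being called. ALDH3B1 was at -0.0024 with upper-quartile scaling and -0.0058 without a filter, and ranged from -0.04 to 0.05 with a library left out. ALDH18A1 was at -0.0058 and -0.0095 under the same settings and ranged from -0.03 to 0.04. Without MANIO replicate 3 ALDH3A1 was at -0.16 (0.31 was its highest value), and without DMSO replicate 4 ALDH7A1 was at -0.01 (highest 0.08). With the length of the longest coding transcript, a choice made after seeing the data, ALDH1A3 made up 47.5% of the members' sum in DMSO and 65.6% in MANIO, and the sum rose 1.42-fold where merged exons gave 1.46-fold. Depth limits ALDH1A1 and ALDH3A1 most.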
